A study of Mus musculus with 7 samples.

Results

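The 10 genes Lats1, Lats2, Stk3, Stk4, Sav1, Mob1a, Mob1b, Nf2, Amot and Amotl2 encode the kinases of the Hippo pathway with their cofactors and a set of scaffolds that act upstream of them. They were chosen by name as a pathway group, with earlier results of these data known but with no rule on their values, and all 10 were in the deposited table of 35727 genes and passed the filter on low counts that left 13740 genes for testing. Gene expression was measured by polyA RNA-seq in mouse sarcoma cells that carry red fluorescent protein (RFP) and were sorted from tumours, in 3 libraries labelled p53KO Vgll3 OE and 4 libraries labelled p53KO Ccne1 OE. Both lines came from mesenchymal stem cells of female C57/Bl6 p53KO mice, so every library shares the p53 knockout and that background, and no library of cells without a transduced gene was analysed here. The Vgll3 line received a retroviral vector for Vgll3, a transcription cofactor that binds TEAD factors, and the Ccne1 line one for Ccne1, which encodes cyclin E1, the activator of CDK2 at entry into S phase. Each line then went 2 times through tumours under the skin of female wild-type C57/Bl6 hosts, which keep their own stroma and immune cells, before transplantation into the mice whose tumours were sorted. The labels give no age, no dose, no time and no promoter of the vectors, describe each model as 1 cell line, and do not say that libraries of a group came from separate tumours or animals. P-values therefore cover only how libraries of a group vary, a spread that may be technical, and an effect of the transduced gene cannot be told apart from any other difference between the lines.

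In the Hippo pathway the MST kinases, encoded by Stk4 (MST1) and Stk3 (MST2), act with the adaptor SAV1 to phosphorylate the LATS kinases and their MOB1 cofactors, and LATS kinases in turn phosphorylate the coactivators YAP and TAZ, which are then kept out of the nucleus or degraded. NF2 (merlin) brings LATS kinases to the plasma membrane, and the angiomotins AMOT and AMOTL2 are junction proteins that bind YAP and are themselves LATS substrates. In soft-tissue sarcomas the pathway is known for its active YAP and TAZ. YAP and TAZ act on DNA through the TEAD factors, the same partners that vestigial-like proteins such as VGLL3 use.

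Vgll3 itself had 285, 255 and 216 CPM (counts scaled to a common effective library size) in the Vgll3 libraries, against 37.9, 54.3, 54.5 and 56.2 CPM in the Ccne1 libraries. Ccne1 averaged 14.9 ± 2.16 CPM in the Vgll3 libraries (SD, n = 3) and 12.7 ± 5.61 CPM in the Ccne1 libraries (SD, n = 4), a difference that did not pass the test (edgeR adjusted p = 0.609), so the 4 libraries are called Ccne1 libraries only as labelled. Library totals ran from 21725890 to 53610300 counts. Vgll3 replicate 3 stood apart, with correlations of log2 CPM of 0.956 and 0.960 with the other Vgll3 libraries, where all other pairs within a group lay between 0.978 and 0.987. The 8 mesenchymal markers summed to between 34092 and 41011 CPM in the Vgll3 libraries and between 22243 and 27496 CPM in the Ccne1 libraries, with Col1a2 the most abundant in the Vgll3 libraries and Vim in the Ccne1 libraries. Of these 8, Col1a1, Col1a2 and Pdgfrb were called higher and Vim, Pdgfra and Prrx1 lower in the Vgll3 libraries, with a median log2 fold change of -0.67. The 7 epithelial markers summed to between 0.151 and 1.00 CPM in the Vgll3 libraries and between 2.07 and 4.81 CPM in the Ccne1 libraries, with Cdh1 the most abundant in the Vgll3 libraries, Krt8 in the Ccne1 libraries, and Krt5 at 0 in all. Mesenchymal RNA was thus abundant and epithelial RNA scarce in every library. The 10 macrophage markers, led by Cd68, summed to between 7.22 and 15.5 CPM in the Vgll3 libraries and between 8.21 and 17.8 CPM in the Ccne1 libraries, and the 9 pan-leukocyte and lymphocyte markers, led by Ptprc, to between 1.99 and 5.46 CPM in the Vgll3 libraries and between 0.727 and 2.09 CPM in the Ccne1 libraries. Macrophage and leukocyte sums overlapped between the groups. The 7 pericyte and smooth muscle markers, led by Cspg4, summed to between 147 and 174 CPM in the Vgll3 libraries and between 460 and 553 CPM in the Ccne1 libraries. Cspg4 made up most of both sums and was called lower, while Rgs5, Notch3 and Des were called higher in the Vgll3 libraries, and the list had a median log2 fold change of 0.23. The 6 erythroid markers, led by Hba-a1, summed to between 0.189 and 2.25 CPM in the Vgll3 libraries and between 5.73 and 10.3 CPM in the Ccne1 libraries, and the 9 dissociation stress genes, led by Jun, to between 8069 and 10595 CPM in the Vgll3 libraries and between 6549 and 8823 CPM in the Ccne1 libraries, with 3 called higher and 3 lower. The part of these markers in the results was not tested.

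TEAD factors bind the core GGAATG, and 4 of the members carry it beside a start site. RefSeq (GRCm38.p6, the assembly of mm10) gave 11 windows of 300 bases, with 250 before and 50 after a start, for 9 of the 10 members. The core was searched on both strands, and 4 of these 11 windows held it, those of Lats2, Sav1, Mob1a and Amotl2, beside 14.7% of all 32851 windows. They are shown with 10 bases on either side because they are the letters a TEAD factor would read, with the core or its complement CATTCC in capitals and each read 5′ to 3′ along the strand of its gene.
Lats2: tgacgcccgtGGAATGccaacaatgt
Sav1: gctttcccagCATTCCcagcggcgcg
Mob1a: gccagaatagCATTCCtttaggagaa
Amotl2: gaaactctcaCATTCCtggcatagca
The Lats2 stretch lies at chr14:57746104-57746129 (minus strand) with its core 4 bases after the start, and the Sav1 stretch at chr12:69987093-69987118 (minus strand) with its core 106 bases before it. The Mob1a stretch lies at chr6:83325820-83325845 (plus strand) with its core 209 bases before the start, inside the neighbouring gene Mthfd2. The Amotl2 stretch lies at chr9:102717729-102717754 (plus strand) with its core 65 bases before the RefSeq start. That core is inside the GENCODE bounds of Amotl2 itself, which begin at base 102716672. These 4 genes did not move together: Mob1a was higher and Sav1 lower in the Vgll3 libraries, and Lats2 and Amotl2 did not pass the test. The AP-1 motif TGANTCA, searched in the same way, was in the window of 0 members and in 7.81% of all windows. The member windows had a median GC content of 61.7%, beside 52.7% over all windows. A match describes the letters only and is not evidence of binding.

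Of the 10 genes, 3 were higher in the Vgll3 libraries (Lats1, Mob1a and Nf2), 4 were lower (Amot, Sav1, Stk4 and Mob1b) and 3 did not pass the test (Lats2, Stk3 and Amotl2), by edgeR's quasi-likelihood test with Benjamini-Hochberg adjustment over all genes at 0.05. Over all 13740 genes tested, 51.9% were called, 25.1% higher and 26.8% lower, so 7 called genes of 10 is a share in a comparison where most genes were called. Without Vgll3 replicate 3, the library that stood apart, 5 of the 10 were called, and Mob1b and Nf2 were not. Leaving out any other 1 library left 3 called (Ccne1 replicate 4 or Vgll3 replicate 2) or 4 called (each of the others). The median log2 fold change (Vgll3 over Ccne1) of the 10 was -0.14, beside 0.01 over all genes tested. Amot had the largest change among the 10, and 90.9% of all tested genes had a smaller absolute change. Lats1 followed at 67.8%, and the other 8 genes lay between 10.8% and 49.5%. In 7 of the 10 genes the Vgll3 and Ccne1 libraries did not overlap in CPM, beside 55.7% of all tested genes. Since these are bulk libraries, fewer cells that make a transcript and less of it per cell cannot be told apart.

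**Figure D1:**
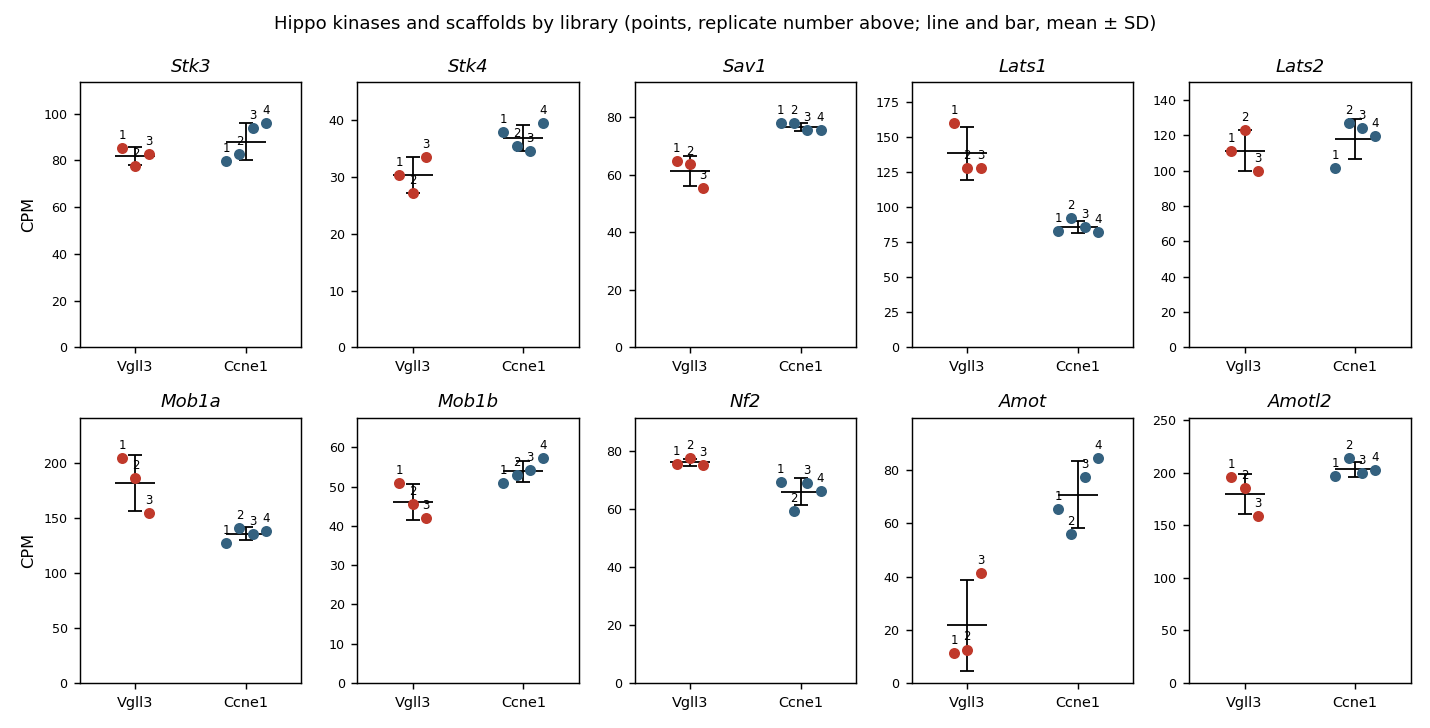
CPM of each of the 10 genes in each library, Vgll3 libraries on the left (n = 3) and Ccne1 libraries on the right (n = 4), with the replicate number above each point and mean ± SD as line and bar; every axis starts at 0. Lats1, Mob1a and Nf2 lie higher in all 3 Vgll3 libraries and Sav1, Stk4, Amot and Amotl2 lower, while Vgll3 replicate 3 lies above the other Vgll3 libraries for Amot.

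The MST kinases at the top of the cascade changed little. Stk3 (ENSMUSG00000022329, chr15:34875496-35178921, minus strand), which encodes MST2, had 85.1, 77.5 and 82.7 CPM in the Vgll3 libraries, against 79.7, 82.8, 93.7 and 96.1 CPM in the Ccne1 libraries. The groups overlapped, and the ratio of 0.928 had a 95% interval of 0.813 to 1.06 (edgeR adjusted p = 0.315), so its bounds did not reach the size of the Lats1 change. Stk4 (ENSMUSG00000018209, chr2:164070322-164155524, plus strand), which encodes MST1, had 30.3, 27.2 and 33.5 CPM in the Vgll3 libraries, against 37.9, 35.5, 34.6 and 39.5 CPM in the Ccne1 libraries. All 3 Vgll3 libraries were lower, though Vgll3 replicate 3 came within about 1 CPM of Ccne1 replicate 3. Stk4 fell by 0.28 on the log2 scale (SE 0.09, edgeR adjusted p = 0.0298). Leaving out Vgll3 replicate 1 or 2, or 1 of the Ccne1 replicates 1 and 4, ended that call. Upper-quartile scaling and a replicate block also ended it, and the adjusted p reached 0.146 over the 13 alternatives.

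Sav1 (ENSMUSG00000021067, chr12:69965012-69987002, minus strand) encodes the adaptor that holds MST kinases to LATS. It had 64.8, 63.8 and 55.4 CPM in the Vgll3 libraries, against 78.0, 77.8, 75.5 and 75.5 CPM in the Ccne1 libraries. The Ccne1 libraries were close to each other and every Vgll3 library was below them. Sav1 was lower in the Vgll3 libraries by a log2 fold change of -0.32 (SE 0.07, edgeR adjusted p = 0.00552), and it stayed called in all 13 alternatives, with values between -0.37 and -0.24. Of its 31-base words, 25% also occur in Atl1, a gene on the opposite strand whose end overlaps that of Sav1. Atl1 had 2.51, 2.91 and 3.28 CPM in the Vgll3 libraries and 1.96, 2.12, 1.67 and 1.93 CPM in the Ccne1 libraries, the opposite direction and a far lower level than Sav1. The 250 bases before the RefSeq start of Sav1 (chr12:69987003-69987252, minus strand) are shown because Sav1 is the member with a TEAD core in exon-free upstream sequence and a call held in all alternatives, with the complement of the core in capitals.
Sav1 upstream: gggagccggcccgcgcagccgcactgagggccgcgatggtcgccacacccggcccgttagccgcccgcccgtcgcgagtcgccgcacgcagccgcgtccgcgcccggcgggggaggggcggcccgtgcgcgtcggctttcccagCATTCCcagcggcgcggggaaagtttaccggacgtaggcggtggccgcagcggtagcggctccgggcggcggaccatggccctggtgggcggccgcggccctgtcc

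Lats1 and Lats2 encode the kinases that phosphorylate YAP and TAZ, and Lats1 changed between the models while Lats2 did not pass the test. Lats1 (ENSMUSG00000040021, chr10:7681214-7716460, plus strand) had 160, 128 and 128 CPM in the Vgll3 libraries, against 83.4, 92.4, 85.7 and 82.4 CPM in the Ccne1 libraries. The lowest Vgll3 library was well above the highest Ccne1 library. Lats1 was 1.61-fold higher in the Vgll3 libraries (95% interval 1.39 to 1.87), with edgeR adjusted p = 0.000359, and its log2 fold change stayed between 0.57 and 0.77 and past the threshold in all 13 alternatives. Lats2 (ENSMUSG00000021959, chr14:57689662-57758388, minus strand) had 111, 123 and 99.8 CPM in the Vgll3 libraries, against 101, 127, 124 and 119 CPM in the Ccne1 libraries. The groups overlapped, and the ratio of 0.944 had an interval of 0.806 to 1.11 (edgeR adjusted p = 0.515). For Lats2, 41.7% of its 31-base words also occur in Gm49361, an annotated gene on the same strand that overlaps it, so the counting could have split reads between them. Gm49361 was listed at 0 in 4 of the 7 libraries and at no more than 0.772 CPM in any.

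The upstream flank of Lats1 is shared with a gene that moved the same way. Pcmt1, which encodes a protein repair methyltransferase, runs away from Lats1 on the opposite strand, and 72 exon-free bases (chr10:7681137-7681208, read along the plus strand toward Lats1) separate it from the RefSeq start of Lats1. They are shown as the stretch that both starts share.
Lats1 and Pcmt1: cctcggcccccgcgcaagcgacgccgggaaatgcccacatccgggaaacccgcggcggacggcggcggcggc
Pcmt1 had 84.3, 71.0 and 72.8 CPM in the Vgll3 libraries, against 46.3, 51.9, 53.3 and 54.2 CPM in the Ccne1 libraries, with no overlap and a log2 fold change of 0.56 (SE 0.09). Pcmt1 was taken for its position beside Lats1 and falls outside the rule for named genes.

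The MOB1 cofactors, which bind LATS kinases and raise their activity, moved apart. Mob1a (ENSMUSG00000043131, chr6:83326016-83343776, plus strand) had 204, 186 and 155 CPM in the Vgll3 libraries, against 127, 141, 136 and 138 CPM in the Ccne1 libraries. All 3 Vgll3 libraries were above every Ccne1 library, with Vgll3 replicate 3 the closest. Mob1a was 1.34-fold higher (95% interval 1.15 to 1.56), with edgeR adjusted p = 0.00553, and was called in all 13 alternatives. Mob1b (ENSMUSG00000006262, chr5:88720855-88764220, plus strand) had 51.0, 45.5 and 41.9 CPM in the Vgll3 libraries, against 50.9, 53.05, 54.3 and 57.3 CPM in the Ccne1 libraries. Vgll3 replicate 1 and Ccne1 replicate 1 had nearly the same level, so the groups touched. Its log2 fold change of -0.22 (SE 0.08) had an edgeR adjusted p of 0.0498, and the call was lost in 12 of the 13 alternatives, among them the removal of every library except Vgll3 replicate 1, with an adjusted p of up to 0.219.

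Mob1a, like Lats1, starts back to back with a gene that was also higher in the Vgll3 libraries. That gene is Mthfd2, which encodes a mitochondrial enzyme of folate metabolism, and 107 exon-free bases (chr6:83325909-83326015, read along the plus strand toward Mob1a) lie between the annotated bounds of the pair. They are shown as the stretch between both genes.
Mob1a and Mthfd2: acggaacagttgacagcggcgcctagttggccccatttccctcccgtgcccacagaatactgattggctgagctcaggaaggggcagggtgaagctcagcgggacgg
Mthfd2 had 156, 145 and 115 CPM in the Vgll3 libraries, against 42.5, 34.5, 33.8 and 33.8 CPM in the Ccne1 libraries. Its log2 fold change of 1.94 (SE 0.12, edgeR adjusted p = 9.13e-06) was larger than the 0.42 of Mob1a, and it too was taken for its position only.

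Nf2 (ENSMUSG00000009073, chr11:4765845-4849536, minus strand), which encodes the membrane scaffold merlin, had 75.4, 77.5 and 75.2 CPM in the Vgll3 libraries, against 69.3, 59.1, 69.1 and 66.3 CPM in the Ccne1 libraries. The Vgll3 libraries were almost level and all above the Ccne1 libraries. The change was small, a log2 fold change of 0.21 (SE 0.07, edgeR adjusted p = 0.0414). It was lost in 8 of the 13 alternatives, with an adjusted p of up to 0.168, among them the removal of Ccne1 replicate 2, 3 or 4 or of any 1 Vgll3 library.

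Amot (ENSMUSG00000041688, chrX:145446425-145505181, minus strand), the angiomotin first described in endothelial cells, differed most between the models and within the Vgll3 group. It had 11.1, 12.5 and 41.4 CPM in the Vgll3 libraries, against 65.5, 56.0, 77.4 and 84.5 CPM in the Ccne1 libraries. The groups did not overlap, but Vgll3 replicate 3 was closer to Ccne1 replicate 2 than to the other Vgll3 libraries, and the mean of 21.7 CPM carried an SD of 17.1 (n = 3). The fitted log2 fold change was -1.71 (SE 0.51, edgeR adjusted p = 0.0315). Without Vgll3 replicate 3 it was -2.58 (edgeR adjusted p = 2.75e-05). The call was lost without the low-count filter and when any 1 of the other 6 libraries was left out, at an adjusted p of up to 0.0872. The log2 fold change was -1.40 at its smallest over all alternatives.

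The summed level of endothelial markers had the same order as Amot inside the Vgll3 group. The 8 markers summed to 34.4, 65.8 and 232 CPM in the Vgll3 libraries, against 137, 51.2, 83.3 and 59.9 CPM in the Ccne1 libraries, and 0 of the 8 were called. Vgll3 replicate 3 was highest for the sum and for Pecam1, a junction protein of endothelium with 19.6, 35.3 and 184 CPM in the Vgll3 libraries and 71.3, 22.4, 49.6 and 23.4 CPM in the Ccne1 libraries. Pecam1 alone made up most of the sum in Vgll3 replicate 3 (184 of 232 CPM). Kdr, a VEGF receptor, was also highest in that library, with 7.36 CPM. Within the Vgll3 group Tek and Cldn5 peaked in replicate 2, with 0.869 and 2.23 CPM against 0.602 and 2.18 CPM in replicate 3. Over all 7 libraries both were highest in Ccne1 replicate 1, with 2.14 and 5.51 CPM. Other markers were also not at their highest in Vgll3 replicate 3 over all 7. Cdh5 had 17.2 CPM there, against 26.2 CPM in Ccne1 replicate 1, and Vwf 14.02 CPM, against 17.7 CPM in the same Ccne1 library. Among the Ccne1 libraries Amot was higher in replicates 3 and 4 than in replicate 1, the one with the most endothelial marker RNA. The part of endothelial RNA in the Amot values was not tested.

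**Figure D2:**
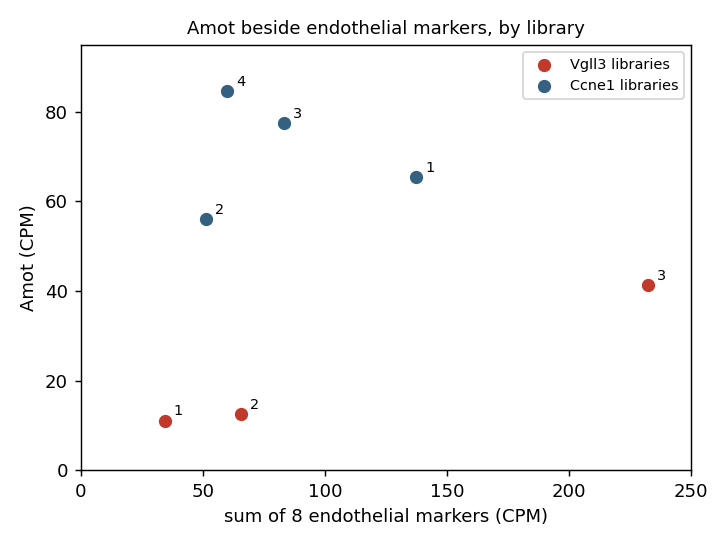
Amot (CPM, vertical axis) against the summed CPM of 8 endothelial markers (horizontal axis) in each library, Vgll3 libraries in red and Ccne1 libraries in blue, with replicate numbers beside the points. Vgll3 replicate 3 has the highest marker sum, 232 CPM, of which Pecam1 alone gives 184 CPM. It also has the highest Amot of its group, 41.4 CPM, and all Ccne1 libraries lie above it in Amot at lower marker sums.

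Amotl2 (ENSMUSG00000032531, chr9:102716672-102733418, plus strand), an angiomotin relative that is itself a well-known target of YAP and TEAD, had 196, 185 and 159 CPM in the Vgll3 libraries, against 197, 214, 200 and 202 CPM in the Ccne1 libraries. Every Vgll3 library was below every Ccne1 library, but by less than 1 CPM at the nearest. The ratio of 0.886 had an interval of 0.777 to 1.01 and did not pass (edgeR adjusted p = 0.112). A two-sided exact permutation test over libraries gave p = 0.0286 for Amotl2, the smallest it can give with 3 libraries against 4. Lats1, Stk4, Sav1, Mob1a, Nf2 and Amot had the same value, which is not adjusted over genes. The groups did not overlap in CPM in 55.7% of all tested genes.

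Per kilobase of the longest annotated transcript, the members lay far apart. In the Vgll3 libraries the levels were, from the top, Mob1a at 41.2 ± 5.69 CPM per kb and Amotl2 at 40.6 ± 4.30 CPM per kb, then Stk3 at 24.8, Lats2 at 21.4, Lats1 at 19.2, Sav1 at 18.3 and Nf2 at 16.1 CPM per kb, and then Stk4 at 5.80, Mob1b at 5.14 and Amot at 3.11 CPM per kb. In the Ccne1 libraries they were Amotl2 at 45.9 ± 1.69 and Mob1a at 30.7 ± 1.34 CPM per kb, then Stk3 at 26.7, Sav1 at 22.8, Lats2 at 22.7, Nf2 at 13.97, Lats1 at 11.9, Amot at 10.2, Stk4 at 7.04 and Mob1b at 6.01 CPM per kb. Neighbours in this order whose mean ± SD ranges overlapped were, in the Vgll3 libraries, Mob1a and Amotl2, the run of Stk3, Lats2, Lats1 and Sav1, and the run of Stk4, Mob1b and Amot. In the Ccne1 libraries they were Sav1 with Lats2 and Lats1 with Amot. By group mean, Lats1 stood above Sav1 and Nf2 in the Vgll3 libraries and below both in the Ccne1 libraries. In Vgll3 replicate 2, though, Lats1 was below Sav1 (17.73 against 18.99 CPM per kb). In Ccne1 replicate 2 Lats1 was above Nf2 (12.8 against 12.5 CPM per kb). The order depends on which length is used: per kilobase of coding sequence Mob1b moved up to rank 3 in both groups, since most of its long transcript is not coding. By that length Lats1 ranked below Sav1 and Nf2 in both groups, at rank 7 in the Vgll3 libraries and 8 in the Ccne1 libraries.

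Ratios between related genes within a library need no scaling between libraries. The log2 ratio of Lats2 to Lats1 was -0.53, -0.06 and -0.36 in the Vgll3 libraries, against 0.28, 0.46, 0.53 and 0.53 in the Ccne1 libraries. Lats1 thus gave more reads than Lats2 in every Vgll3 library and fewer in every Ccne1 library, before any scaling for length. Per kilobase of the longest transcript, Lats2 was above Lats1 in Vgll3 replicates 2 (23.7 against 17.7) and 3 (19.2 against 17.7). In Vgll3 replicate 1 it was below (21.4 against 22.3). Per kilobase of coding sequence the Vgll3 means were 41.0 for Lats1 and 35.6 for Lats2. The sum of Lats1 and Lats2 averaged 250 ± 21.9 CPM in the Vgll3 libraries and 204 ± 14.7 CPM in the Ccne1 libraries (SD, n = 3 and n = 4). The log2 ratio of Mob1b to Mob1a was -2.002, -2.04 and -1.88 in the Vgll3 libraries, against -1.32, -1.41, -1.32 and -1.27 in the Ccne1 libraries, again without overlap. The MOB1 pair was the tightest of these ratios within groups, with SDs of 0.08 and 0.06. The log2 ratio of Stk4 to Stk3 was -1.49, -1.51 and -1.30 in the Vgll3 libraries, against -1.07, -1.22, -1.44 and -1.28 in the Ccne1 libraries, and these groups overlapped. None of the 4 related pairs of members shares a single 31-base word, so their reads can be told apart.

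The angiomotins shifted between family members. The log2 ratio of Amotl2 to Amot was 4.14, 3.89 and 1.94 in the Vgll3 libraries, against 1.59, 1.93, 1.37 and 1.26 in the Ccne1 libraries, and Vgll3 replicate 3 only just cleared the highest Ccne1 library. Amotl1, the third angiomotin and not one of the 10, had 392.3, 437 and 291 CPM in the Vgll3 libraries, against 205, 229, 224 and 220 CPM in the Ccne1 libraries. It was 1.70-fold higher in the Vgll3 libraries (edgeR adjusted p = 0.00102), opposite to Amot. The 3 angiomotins together summed to 575 ± 74.8 CPM in the Vgll3 libraries and 493 ± 18.2 CPM in the Ccne1 libraries. These groups overlapped, since Vgll3 replicate 3, at 491 CPM, was below Ccne1 replicates 2, 3 and 4 (499, 502 and 507 CPM).

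**Figure D3:**
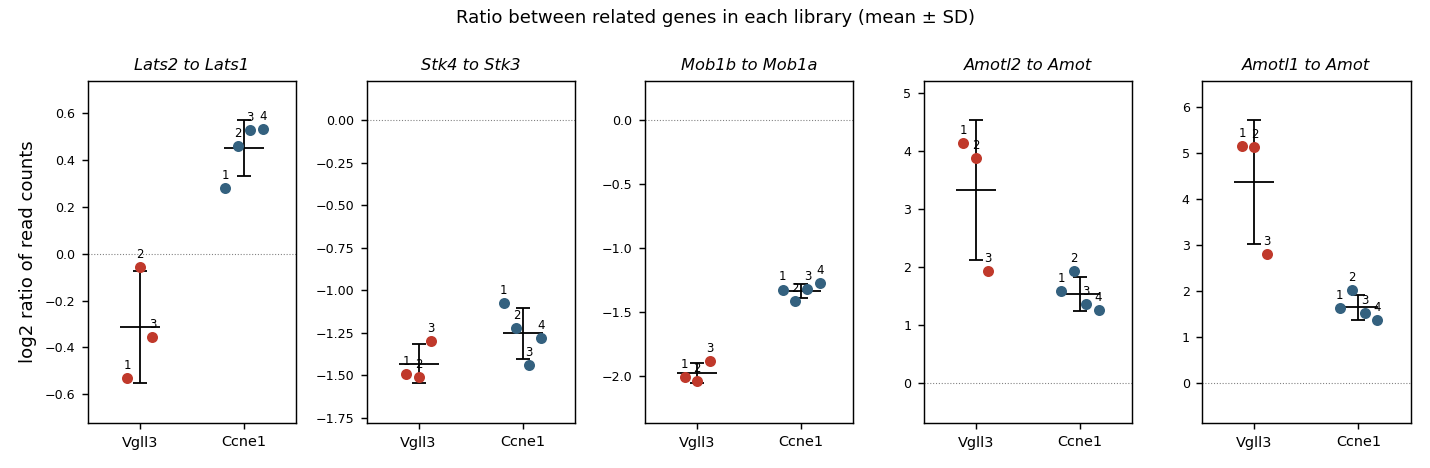
The log2 ratio of read counts between related genes in each library (vertical axes, each with its own range), Vgll3 libraries left (n = 3) and Ccne1 libraries right (n = 4), with replicate numbers, mean ± SD, and a dotted line at equal counts. With counts not scaled for gene length, Lats2 to Lats1 is below 0 in all Vgll3 libraries and above 0 in all Ccne1 libraries. Mob1b to Mob1a is lower in all Vgll3 libraries, and Stk4 to Stk3 overlaps. The Amotl2 and Amotl1 ratios to Amot are higher in Vgll3 with replicate 3 nearest to the Ccne1 libraries.

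The members lie on 10 different chromosomes, and some of the changes had the direction of their surroundings. Around Mob1a, the 88 other tested genes within 5 Mb had a median log2 fold change of 0.53, with 55 higher and 4 lower in the Vgll3 libraries, and the whole of chromosome 6 had a median of 0.39, close to the 0.42 of Mob1a. Around Lats1, the 31 genes within 5 Mb had a median of 0.42, with 15 higher and 5 lower, while chromosome 10 as a whole had 0.12. Within 2 Mb the median of the 16 neighbours of Lats1 was 0.75, above the 0.69 of Lats1 itself. Nf2 went the other way from its surroundings: the 76 genes within 5 Mb had a median of -0.24, with 8 higher and 35 lower, and chromosome 11 one of -0.30. Mob1b and Amot were also lower in the Vgll3 libraries among neighbours with medians of 0.27 and 0.22 (0.57 and 0.76 within 2 Mb, the second over only 5 genes). Sav1 was lower among 55 neighbours with a median of 0.05, though 7 of them were called higher and 14 lower. The neighbours of Stk4, Stk3, Lats2 and Amotl2 had medians between -0.10 and 0.03. Copy number was not measured, and its part in these values was not tested.

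**Figure D4:**
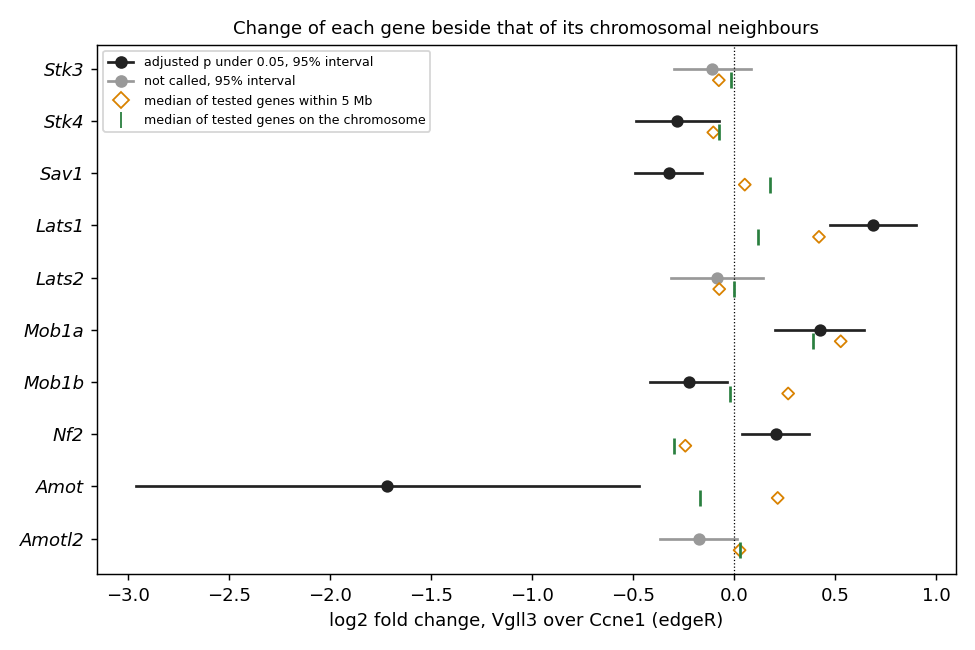
The log2 fold change of each gene, Vgll3 over Ccne1, with its 95% interval (black where edgeR's adjusted p is under 0.05, grey otherwise), beside the median of the tested genes within 5 Mb (open diamond) and on the whole chromosome (green tick). Mob1a lies near both medians of its chromosome 6 and Lats1 above both of chromosome 10 (but below the 0.75 of its neighbours within 2 Mb). Nf2, Mob1b and Amot lie on the other side of 0 from the median of their neighbours. So do Sav1 and Amotl2, whose neighbours have medians near 0 (0.05 and 0.03).

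The genes around this core were described with 9 lists of other Hippo pathway genes, 97 of whose 109 genes were tested. Of the 97, 26 were higher and 41 lower in the Vgll3 libraries, which is 69.1%, beside 51.9% of all genes, with a median log2 fold change of -0.20 beside 0.01. No set was tested, so these counts are descriptions.

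MAP4K and TAO kinases phosphorylate MST or LATS kinases in parallel to the core, and 1 of 10 was higher and 4 lower. Mink1 had 77.6, 80.8 and 82.1 CPM in the Vgll3 libraries, against 146, 195, 163 and 182 CPM in the Ccne1 libraries, and Map4k3 fell by 0.75 on the log2 scale (edgeR adjusted p = 5.78e-05). Taok2, the 1 higher gene, had a log2 fold change of 0.28 that was lost in 9 of 13 alternatives. The STRIPAK complex, which joins the phosphatase PP2A to striatins and keeps MST kinases dephosphorylated, had 16 tested genes, and all 16 were called, 6 higher and 10 lower, with a median of -0.35. Its largest change was Stk24 (MST3), a kinase of the complex, which had 49.8, 38.4 and 41.9 CPM in the Vgll3 libraries, against 137, 169, 135 and 136 CPM in the Ccne1 libraries. The adaptor Cttnbp2nl fell by 0.91 on the log2 scale (edgeR adjusted p = 0.000285). The striatin Strn3 rose 1.58-fold, with 163, 151 and 150 CPM in the Vgll3 libraries against 87.3, 95.3, 96.7 and 112 CPM in the Ccne1 libraries. Ctnnal1, a catenin relative in this list that is no core subunit of the complex, rose by 0.87 on the log2 scale at 5.55 ± 0.647 CPM in the Vgll3 libraries and 3.04 ± 0.60 CPM in the Ccne1 libraries.

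Of the 10 other scaffolds of the FERM, KIBRA and motin group, 2 were higher and 5 lower. Wwc1, which encodes KIBRA, the partner of merlin, had 17.2, 15.2 and 19.0 CPM in the Vgll3 libraries, against 51.0, 51.8, 47.3 and 54.4 CPM in the Ccne1 libraries, a log2 fold change of -1.58 (SE 0.10). KIBRA and merlin RNA thus differed in opposite directions between the models, though the small change of Nf2 lost its call in 8 of 13 alternatives. Cd44, the hyaluronan receptor that binds merlin, rose by 0.61 on the log2 scale, beside Amotl1 given above. Of the 6 tested genes of the Fat and Dachsous cadherins, 2 were higher and 3 lower. Fat4 had 12.4, 10.8 and 18.5 CPM in the Vgll3 libraries, against 32.9, 57.5, 59.4 and 38.5 CPM in the Ccne1 libraries, and Fat1 fell by 0.82 on the log2 scale. Fat2 had 0.60, 0.869 and 1.2 CPM in the Vgll3 libraries and a count of 0 in all 4 Ccne1 libraries, which makes it at least 9-fold higher when each Ccne1 library is set to a floor of 3 counts. Fjx1, the relative of the Drosophila kinase four-jointed that modifies Fat and Dachsous cadherins, had a log2 fold change of 0.73 that was lost in 5 of 13 alternatives.

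Classical RASSF adaptors bind MST kinases through a shared coiled-coil domain, and 2 of the 7 tested were higher and 1 lower. Rassf5 had 10.6, 11.7 and 13.2 CPM in the Vgll3 libraries, against 3.28, 3.35, 3.84 and 3.02 CPM in the Ccne1 libraries, 3.51-fold higher. Rassf7, which lacks that domain, had 0.857, 0.756 and 0.770 CPM in the Vgll3 libraries, against 3.69, 6.18, 4.24 and 5.05 CPM in the Ccne1 libraries. Rassf6 was called higher (edgeR adjusted p = 0.0023) at levels of 0.772, 1.21 and 0.435 CPM in the Vgll3 libraries, against no more than 0.136 CPM in any Ccne1 library. Of the 16 LATS inhibitors and ubiquitin ligases, 6 were higher and 5 lower. The LIM proteins of this list, which restrain LATS kinases at junctions and at focal adhesions, did not move as 1 group: Zyx (zyxin) had 883, 834 and 694 CPM in the Vgll3 libraries, against 330, 311, 350 and 323 CPM in the Ccne1 libraries, while Ajuba had 33.5, 37.1 and 44.3 CPM in the Vgll3 libraries, against 97.3, 118, 116 and 118 CPM in the Ccne1 libraries. Wtip, a relative of Ajuba, fell by 0.68 on the log2 scale. Nedd4l, a ubiquitin ligase, rose 1.78-fold.

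The NDR kinases Stk38 and Stk38l are the closest relatives of the LATS kinases and also bind MOB proteins. Stk38l had 23.8, 23.99 and 25.3 CPM in the Vgll3 libraries, against 69.2, 97.5, 81.4 and 79.3 CPM in the Ccne1 libraries, and Stk38 had 38.9, 40.8 and 46.9 CPM in the Vgll3 libraries, against 69.9, 75.9, 81.1 and 79.3 CPM in the Ccne1 libraries. Both NDR kinases were thus lower in every Vgll3 library, in the direction opposite to Lats1. Of the 8 genes of that branch 3 were higher, among them Mob3b at 3.56 ± 0.506 CPM in the Vgll3 libraries and 1.27 ± 0.348 CPM in the Ccne1 libraries, and Fry, an NDR scaffold, at 2.17 ± 0.276 CPM in the Vgll3 libraries and 0.905 ± 0.230 CPM in the Ccne1 libraries. Of 13 tested polarity and junction genes, 3 were higher and 5 lower. Patj had a log2 fold change of 1.3 and Ctnna1 (alpha-catenin, which holds YAP at junctions) one of 0.46, while the basolateral polarity genes Llgl1 and Scrib had values of -0.69 and -0.35.

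Of the 11 genes for the binding and degradation of phosphorylated YAP and TAZ, 1 was higher and 6 lower. The ubiquitin ligase subunits of the SCF type that recognise them differed in direction: Fbxw11 had 89.9, 79.3 and 78.4 CPM in the Vgll3 libraries, against 138, 181, 153 and 164 CPM in the Ccne1 libraries, while its paralog Btrc had a log2 fold change of 0.28 that was lost in 8 of 13 alternatives. Csnk1d, a casein kinase that phosphorylates the degron, fell by 0.62 on the log2 scale. Downstream, Yap1 averaged 188 ± 21.3 CPM in the Vgll3 libraries and 179 ± 13.6 CPM in the Ccne1 libraries and did not pass the test, and Wwtr1 (TAZ) averaged 367 ± 20.6 CPM in the Vgll3 libraries and 434 ± 18.0 CPM in the Ccne1 libraries, a call that was lost in 4 of 13 alternatives. Tead1, Tead2 and Vgll4 were higher in the Vgll3 libraries, with log2 fold changes of 0.63, 1.08 and 0.48, Tead3 and Tead4 were lower, with -0.58 and -3.52, and Vgll1 and Vgll2 had no count in any library.

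**Figure D5:**
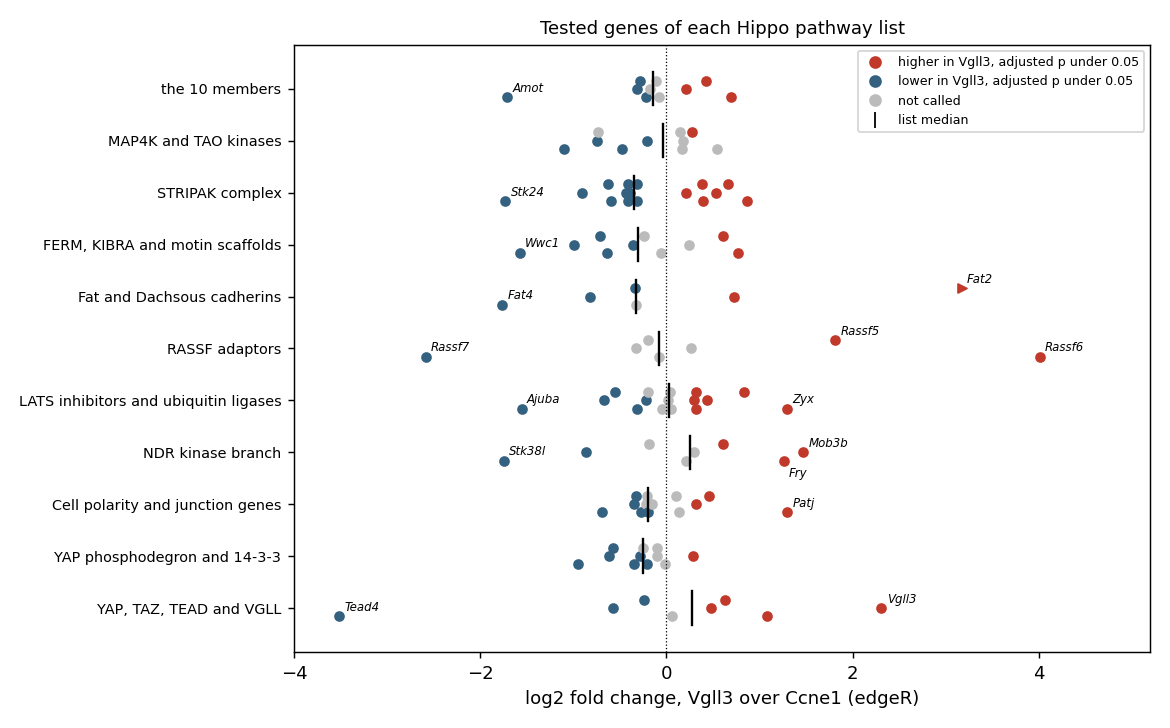
The log2 fold change, Vgll3 over Ccne1 (horizontal axis), of every tested gene of the 10 members and of each Hippo list (rows), red where called higher, blue where called lower and grey where not called by edgeR at an adjusted p of 0.05, with the list median as a black line; Fat2, at 0 in all Ccne1 libraries, is drawn as a triangle at its lower bound. All 16 tested STRIPAK genes are called, 6 higher and 10 lower, and every list holds genes on both sides of 0.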

How the data were processed

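The authors deposited estimated counts for each Ensembl gene in 1 unscaled column per library, made with Salmon on mm10 according to the submitters' processing notes. The sources used here do not state the Salmon version, the annotation, how transcripts were summed to genes or whether strand was used. All values were whole, so 0 were rounded. Of 35727 gene IDs, 35493 had a symbol and coordinates (1-based, from GENCODE M21 on GRCm38, equal to mm10); 23095 had a count. Groups and replicate numbers came from the sample titles.

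Genes were tested with edgeR 4.0.16 in R 4.3.3 (default filterByExpr, TMM, robust quasi-likelihood F test, model as the only term, Benjamini-Hochberg at 0.05; tested on simulated data). Log2 fold changes are Vgll3 over Ccne1, and the SE is the absolute log2 fold change over the square root of F. CPM used effective library sizes, at which 3 counts, the limit that a count of 0 allows, were 0.0577 to 0.136 CPM; this covers counting error only. The biological coefficient of variation was 20.7%. No library was a copy of another of its group, since chi-square over degrees of freedom was 11.7 to 88.9 for all pairs. Read sharing was the share of 31-base words of a gene's GENCODE M21 transcripts found in another gene's, on either strand. Alternatives were RLE and upper-quartile scaling, no low-count filter, DESeq2 1.42.0, limma-voom (limma 3.58.1), a replicate block and each library left out.

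The members and lists were chosen with earlier results of these data known. Named genes are the members, Vgll3 and Ccne1, up to 2 called genes per direction with the largest change of each Hippo list, the YAP, TAZ, TEAD and VGLL genes, and the most abundant gene of each marker list; Pcmt1, Mthfd2, Atl1 and Gm49361 were added for their position, and other marker genes given by name, such as Vim, Rgs5, Kdr and Cdh5, after their values were seen. One gene that the rule names is not reported here. Protein sequences were not used here.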

Additional observations from a re-analysis of the deposited data

Results flagged for a closer look

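In 4 of the 67 sets of Ccne1 libraries checked, 1 library lay far from the other 3, by a gap to its nearest neighbour, divided by the whole range, above Dixon's 95% critical value, which chance gives in about 5% of sets. None of the 10 Hippo kinase and scaffold genes was among them. Fat2, Vgll1 and Vgll2 were at 0 in all 4 Ccne1 libraries, so their sets could not be flagged. Stk24, the STRIPAK kinase, had 169 CPM in Ccne1 replicate 2 and between 135 and 137 CPM in the others (gap over range 0.949). Ajuba had 97.3 CPM in Ccne1 replicate 1 and between 116 and 118 CPM in the others (0.905). Vgll3 had 37.9 CPM in Ccne1 replicate 1 and between 54.3 and 56.2 CPM in the others (0.895). The epithelial marker Krt8 had 3.93 CPM in Ccne1 replicate 2 and between 1.64 and 1.85 CPM in the others (0.906).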

How the results depend on the processing

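Lats1, Sav1 and Mob1a kept their calls and directions in all 13 alternatives, and Lats2, Stk3 and Amotl2 were called in none. The count of 7 called genes was 6 with RLE scaling, DESeq2 or limma-voom, 5 with upper-quartile scaling, 4 without the low-count filter, 4 with a replicate block, and 3 to 5 with a library left out. Genes called lower, 4 in all, were 2 with upper-quartile scaling, 2 without the filter, 2 with the replicate block, and 1 to 3 with a library left out; the cause was not tested, beyond the fewer samples or larger number of genes tested. Genes called higher were 2 or 3 throughout. Lats2, not called, changed sign to 0.0019 with upper-quartile scaling, which shifted the median of all genes to 0.09, and Pecam1, not called, ran from -0.60 (without Vgll3 replicate 3) to 1.40 (without Vgll3 replicate 1). Over all genes, the replicate block gave 4841 calls, 4794 of them among the 7133; same-numbered libraries deviated from their group means with correlations of -0.141, -0.159 and -0.098, so they share only a number and no library correlated best with its own number. Of 650 values for 50 other named genes, 618 kept direction and side of the threshold, 30 lost the call, 1 gained one (Cd68) and 1 reversed (Pecam1). The 9 Hippo lists had 45 to 69 called genes beside 67. Paralog ratios barely moved with a prior count of 2. With a 2 Mb window the neighbours' medians changed sign for Lats2 (0.11) and Amotl2 (-0.02) and grew for Lats1 (0.75), Mob1b (0.57), Amot (0.76, over 5 genes) and Sav1 (0.09).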

Other observations

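Whole chromosomes differed in their median log2 fold change, Vgll3 over Ccne1, over all tested genes. Chromosome 4 had the highest median, 0.44 over 829 genes, followed by chromosome 6, which holds Mob1a, at 0.39 over 654 genes. Chromosome 17 had the lowest, -0.33 over 680 genes, followed by chromosome 11, which holds Nf2, at -0.30 over 1097 genes. These are values of 2 cell lines, and copy number was not measured.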
